A study of Rattus norvegicus with 3 samples.

Results

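Of the 14217 named genes on the array, 97 were grouped as genes of the mitochondrial ribosome and of mitochondrial import. They were taken by symbol. For the large ribosomal subunit, 46 symbols start with Mrpl and a digit. Another 27 start with Mrps and a digit, mostly for the small subunit. For translocases of the inner membrane 15 start with Timm, and for those of the outer membrane 9 start with Tomm. The rule leaves out some proteins of both machineries and takes in a few with other roles, as named below. A gene with several probe sets was represented by the one of highest mean signal. All 97 reached the signal floor, a log2 signal of 6.01 below which values were not ordered, on at least 1 array, and 96 did so on every array.

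RNA was taken at 8 weeks of age from Sprague-Dawley rats. The tissue was soleus, a calf muscle made mainly of slow fibres. Control rats carry a time entry of 7 days, and the other rats had their hind limbs unloaded by tail suspension at an angle of about 30 degrees (HS) for 7 or 14 days. The source entry of the 14-day sample reads 7 days, and its title and time entry, which read 14 days, were followed. RNA of 4 rats was mixed per group and run on 1 Affymetrix array, so each group is 1 array, no value holds the spread between rats, no control of 14 days was used here, and no test was made. Muscle fibre markers such as Acta1, Ckm and Myh7 were present, with log2 signals of at least 14.22 for all 7 markers in the 7-day pool. In such a bulk sample, fewer cells of a type and less RNA per cell cannot be told apart.

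Mitochondria make only a handful of proteins from their own DNA, all of them subunits of the respiratory chain and ATP synthase, on a ribosome of their own. Every protein of that ribosome is coded in the nucleus, made in the cytosol and imported. Import runs through the TOM complex of the outer membrane and then through TIM23, for proteins with a cleaved leader, or TIM22, for carriers, which small TIM chaperones escort across the space between the membranes. The soleus is rich in mitochondria, and its fibres lose slow, oxidative character when the limb is unloaded.

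The genes of the mitochondrial ribosome and of import lay slightly below control after both periods. At 7 days 70 of the 97 lay below control and 27 above it, and the median log2 difference was -0.12. At 14 days 71 lay below and 26 above, with a median of -0.17. Among all 11229 measured genes, 49.0% and 47.3% lay below control at the same times, and the medians were 0 and 0.01. Since 86 of the 97 genes had a mean signal of at least 10, the 3367 genes of that signal are the closer comparison: 49.3% and 50.4% of them lay below control, with medians of 0.00 and -0.00. Centring each array on its own median raised the 7-day differences of all genes alike, by 0.073. The median of the 97 genes at 7 days was then -0.048, and 57 lay below control. The size of the shift from control thus depends on the scaling. The comparison genes moved by the same amount, so this centring leaves the distance between them and the 97 genes nearly unchanged.

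With the deposited values no gene of the group was at least 1.5-fold above control, and few were that far below it. At 7 days 3 of the 97 were at least 1.5-fold lower and 0 were at least 1.5-fold higher, against 9.15% and 9.04% of all measured genes and 5.44% and 6.00% of those with a signal of at least 10. With arrays centred on their medians, only Mrpl45 was still that much lower at 7 days, Mrpl4 and Mrpl49 fell short, and Mrps31 was that much higher. At 14 days 7 were at least 1.5-fold lower and 0 higher, against 9.25% and 11.7% of all measured genes and 7.31% and 7.37% of the bright ones. The share that was lower at 14 days was thus close to that of the bright genes. No gene of the 97 with both signals at or above the floor was 2-fold apart from control, and Tomm40l, whose 14-day signal lay under the floor, has only a lower bound there. On both suspended arrays 61 genes, or 62.9%, lay below control, against 38.3% of the bright genes. Within 0.25 log2 units of control on both arrays lay 47 genes, or 48.5%, against 40.5% of the bright genes.

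The only measure of error is technical. Judged by how far 2 probe sets for one gene disagree, the log2 difference of a single bright probe set had an SD of 0.28 at 7 days, 0.31 at 14 days and 0.21 between the suspended arrays. The differences of the 97 genes had an SD of 0.23, 0.25 and 0.21 in the same comparisons, and pairs of probe sets of these genes alone gave 0.21, 0.25 and 0.27 over 27 pairs. At 7 days 72 of the 97 lay within 1 technical SD of control, 22 (22.7%) lay at least 1 SD below and 3 (3.09%) at least 1 SD above, where 18.3% of the bright genes lay below and 19.2% above. At 14 days 68 lay within, 27 (27.8%) below and 2 (2.06%) above, against 19.8% and 18.2% of the bright genes. At least 2 SD below control were Mrpl45, Mrpl4 and Mrpl49 at 7 days, or 3.09% against 6.06% of the bright genes, and Mrps18b and Mrpl55 at 14 days, or 2.06% against 6.65%. Tomm40l entered the 14-day counts at its bound of -0.66, where the technical SD is 0.48. It is thus among the genes at least 1 SD below but not among those at least 2 SD below, and its distance may be larger.

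**Figure D1:**
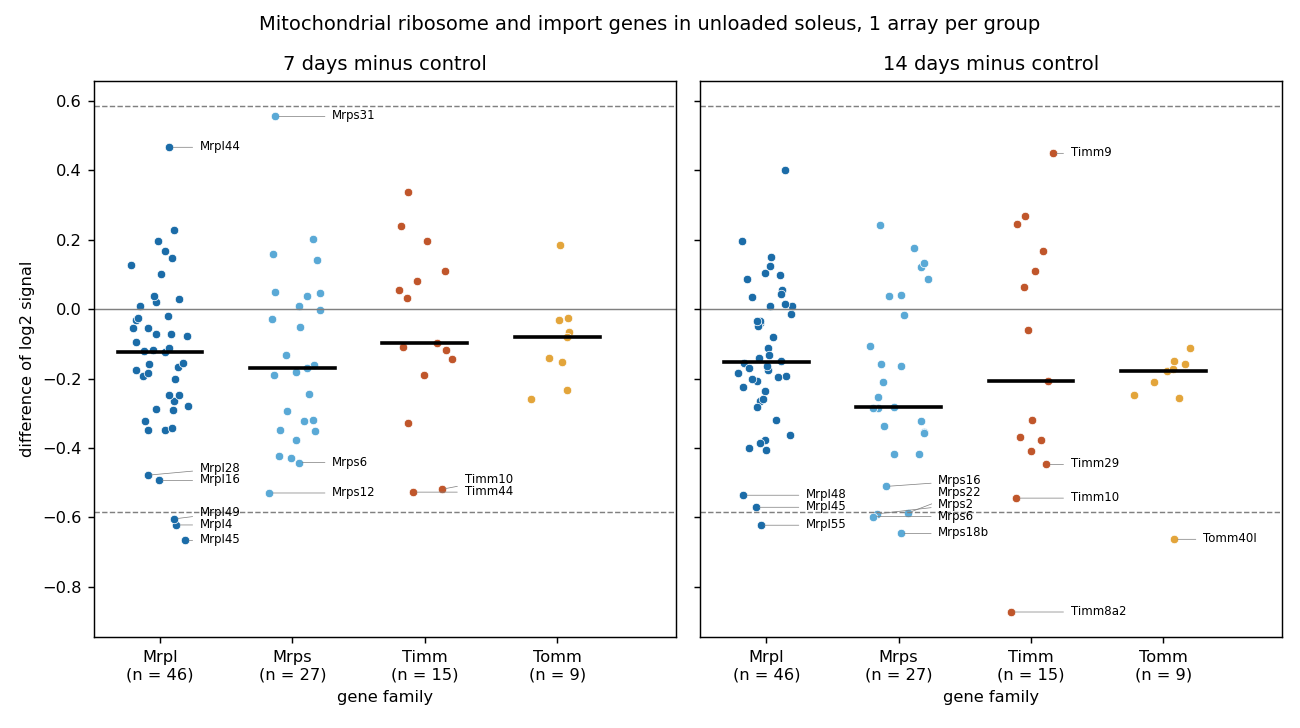
Each point is 1 gene, grouped by family, and its height is the difference of log2 signal between a suspended array and the control array, with black bars for family medians and dashed lines at 1.5-fold. Every family median lies below 0, the Timm genes spread to both sides of it, and there are 3 points below the lower line at 7 days, 7 at 14 days, and none above the upper line.

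For large subunit genes the median difference was -0.12 at 7 days, with 35 of 46 below control, and of -0.15 at 14 days, with 33 below. The largest differences at 7 days were in this group. Mrpl45, whose product sits beside the exit of the ribosome's peptide tunnel and helps to hold the ribosome at the inner membrane, had log2 signals of 12.47 in control, 11.80 at 7 days and 11.90 at 14 days. It was 1.59-fold lower at 7 days and 1.49-fold lower at 14 days, so both suspended arrays lay below control by a like amount.

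Mrpl4 had signals of 11.61 in control, 10.98 at 7 days and 11.62 at 14 days. It was 1.54-fold lower at 7 days alone, and the 14-day array was back at the control value. Its difference of 0.64 between the suspended arrays was the largest upward one among the 97 genes and the only one of at least 1.5-fold, against 6.44% of all measured genes and 2.38% of bright ones. Mrpl49 took an intermediate course, with 11.10, 10.49 and 10.84, or 1.52-fold lower at 7 days. A further Mrpl49 probe set gave 10.27, 9.92 and 9.84, below control on both arrays too but lowest at 14 days.

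Mrpl16 (12.13, 11.63 and 11.86) and Mrpl28 (11.12, 10.64 and 10.91) were likewise lowest at 7 days. Some large subunit genes lay above control. Mrpl44, which has the fold of a ribonuclease, stood at 10.62 in control, 11.09 at 7 days and 10.74 at 14 days, a log2 difference of 0.47 at 7 days and 0.12 at 14 days. Mrpl39 stood at 9.75, 9.95 and 10.15 and was highest at 14 days. Mrpl55 (11.11, 10.86 and 10.49) and Mrpl48 (12.08, 11.89 and 11.54) were lowest at 14 days, by 1.54-fold and 1.45-fold. Mrpl23 (11.99, 12.21 and 11.95) and Mrpl30 (11.26, 11.41 and 11.03) were above control at 7 days and below it at 14 days. Mrpl34 (11.46, 11.18 and 11.47) and Mrpl38 (9.25, 8.90 and 9.29) were low at 7 days and near control at 14 days, as Mrpl4 was. Mrpl17, among the brightest of these genes, stood at 13.37, 13.38 and 13.19. Of the other large subunit genes, Mrpl15, Mrpl27, Mrpl42 and Mrpl43 stayed within 0.12 log2 units of control on both arrays.

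**Figure D2:**
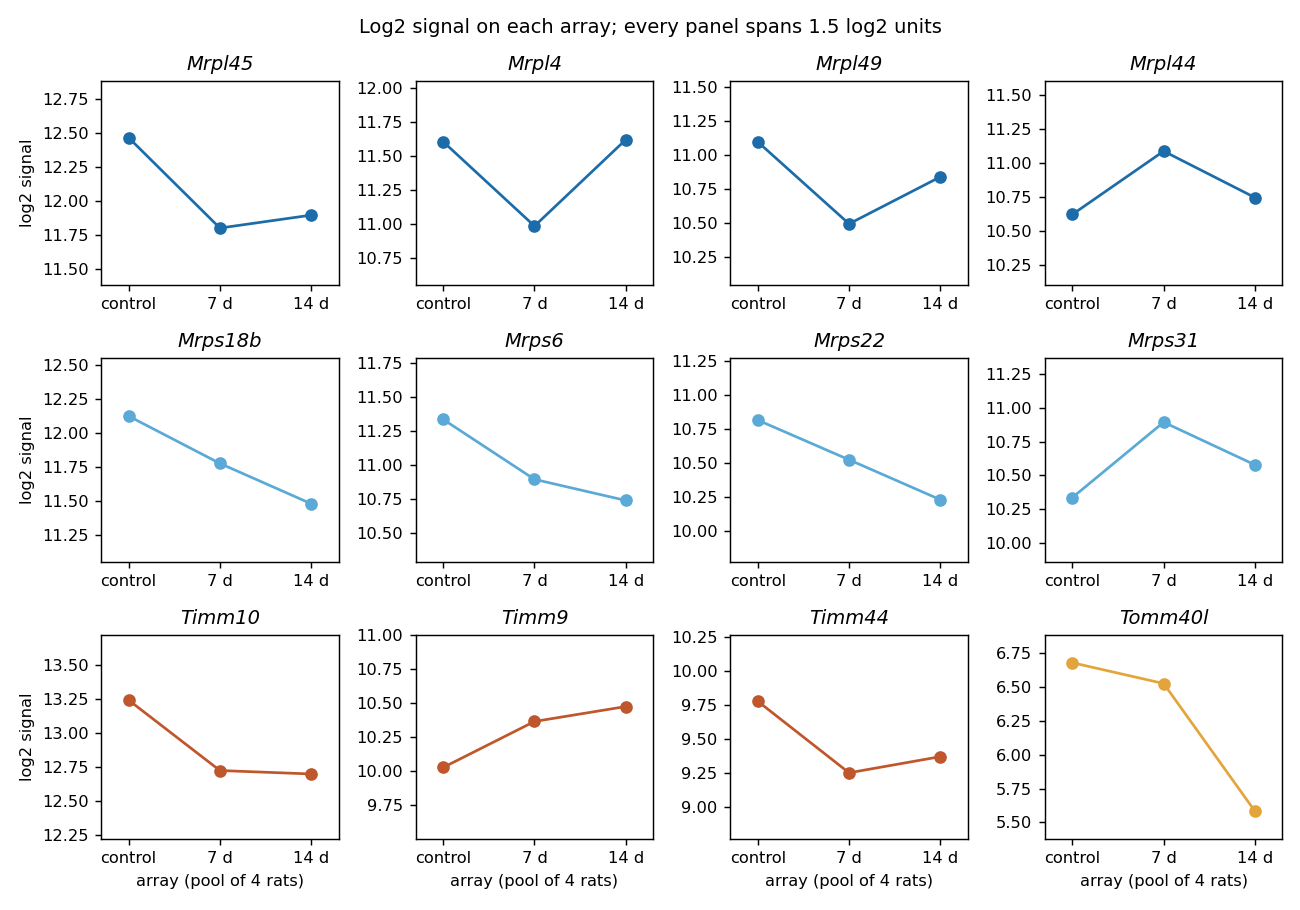
Log2 signal of 12 genes on the control, 7-day and 14-day arrays, each array being 1 pool of 4 rats; every panel spans 1.5 log2 units, and lines only join the points. Mrpl4 dips at 7 days and returns, Mrps18b and Mrps22 step down at each time, and Timm9 and Timm10 lie on opposite sides of their control values.

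By the probe sets used, the Mrps genes had a lower median at 14 days than at 7 days. These 27 genes encode small subunit proteins, apart from Mrps18a and Mrps30, which belong to the large subunit. The median was -0.17 at 7 days, with 19 of 27 below control, and -0.28 at 14 days, with 20 below. From 7 to 14 days 20 of the 27 were lower, compared with 24 of the 46 Mrpl genes. Of the Tomm genes 7 of 9 were lower as well, and of the Timm genes 8 of 15, so this was not particular to Mrps genes. The shares were 54.0% of the bright and 46.3% of all measured genes. Of those 20, 16 were lower in every scaling. Under all 4 scalings tried, 19 of the 27 lay below control at 14 days. The median difference between the suspended arrays was -0.07, where the technical SD of a single bright probe set is 0.21. Further probe sets clear of the floor did not all follow. They were higher at 14 than at 7 days for Mrps14, Mrps15 and Mrps18c, by 0.09, 0.05 and 0.29. Mrps9 had -0.26, and Mrps27 had -1.11 and 0.04.

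Mrps18b, 1 of 3 mammalian versions of bacterial protein S18, had signals of 12.12, 11.77 and 11.48 on the control, 7-day and 14-day arrays. It was 1.57-fold lower at 14 days, the largest difference among the ribosomal genes at that time. Its relatives Mrps18a (11.80, 11.48 and 11.59) and Mrps18c (10.31, 10.15 and 9.95) were also lower on both suspended arrays, by 0.21 and 0.36 log2 units at 14 days. Mrps18a is part of the large subunit in mammals despite its name, as is Mrps30, which stood at 11.66, 11.80 and 11.64.

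Mrps6, a small subunit protein with a bacterial counterpart, had signals of 11.33, 10.89 and 10.74 and was 1.51-fold lower at 14 days. Mrps22, found only in mitochondrial ribosomes, had 10.82, 10.52 and 10.23, a log2 difference of -0.59 at 14 days. Mrps2 had 10.12, 9.69 and 9.53 and was 1.51-fold lower, although its other probe sets, at 5.83, 5.62 and 6.48 and at 3.50, 4.19 and 3.70, lay under the floor on 2 and on all 3 arrays. The first of them was above the floor at 14 days alone, opposite in sign to the probe set used. Mrps16 had 12.01, 11.58 and 11.50. In each of these genes the control array was highest and the 14-day array lowest.

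Mrps31 was the small subunit gene furthest above control. Its signals were 10.34, 10.89 and 10.58, a difference of 0.56 at 7 days, just short of 1.5-fold, and of 0.24 at 14 days. Mrps33, Mrps34, Mrps35, Mrps23 and Mrps24 lay above control on both arrays as well, by 0.20 or less. Proteins with a bacterial counterpart and those found only in mitochondria did not part clearly. The former had medians of -0.16 and -0.17 at 7 and 14 days, with 33 of 42 below control at each time, and the latter of -0.12 and -0.16, with 18 and 16 of 27 below.

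Mrps12, which shapes the decoding centre of the small subunit, stood at 11.55 in control, 11.02 at 7 days and 11.19 at 14 days, a 1.44-fold difference at 7 days. On the RefSeq map (assembly GRCr8) its nearest coding neighbour, 91 bases away, is Sars2, the mitochondrial seryl-tRNA synthetase, whose signals were 7.95, 6.72 and 7.09. Sars2 was 2.35-fold lower at 7 days, and both genes were lowest at that time. Neighbours as a group did not lie mostly below control. There were 51 pairs of a member and a measured coding gene within 1000 bases, covering 45 members. The neighbour lay below control in 23 pairs at 7 days and in 24 at 14 days. Whether each neighbour shared the sign of its own member was not counted.

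Among the import genes, all 9 Tomm genes lay below control at 14 days, with a median of -0.18, and 8 of 9 at 7 days, with a median of -0.08. The differences were small. Tomm20, a receptor for leader sequences, had signals of 13.93, 13.87 and 13.82, and Tomm22, the receptor that also holds the complex together, had 12.37, 12.11 and 12.13. Tomm40, which forms the pore, had 10.65, 10.51 and 10.40. The small subunits Tomm5 (11.94, 11.86 and 11.76), Tomm6 (11.56, 11.33 and 11.39) and Tomm7 (12.91, 12.88 and 12.75) differed from control by at most 0.23.

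Tomm70, the receptor for carrier proteins, had 11.80, 11.98 and 11.65 and was the only Tomm gene above control at 7 days, and a further probe set of it gave 11.27, 11.10 and 11.27. Tomm34, a cochaperone of the cytosol, had 9.48, 9.46 and 9.27. Tomm40l, a second pore-type protein, had 6.68, 6.52 and 5.58. Its 14-day signal lay under the floor, so it was at least 1.58-fold lower at 14 days, at signals where the technical SD is 0.48. With the median-centred or quantile-normalized values the sign of differences up to 0.11 could turn at 14 days, which concerns 1 of the 9 Tomm genes, and 5 of the 9 kept their place below control at 7 days in every scaling.

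The Timm genes differed among themselves. Their medians were -0.10 at 7 days and -0.21 at 14 days, with 8 and 9 of 15 below control, and 5 of them, Timm9, Timm13, Timm17a, Timm17b and Timmdc1, lay above control on both arrays. Timm9 and Timm10, whose products together form the small TIM chaperone ring, lay on opposite sides of control. Timm10 had signals of 13.24, 12.73 and 12.70 and was 1.43-fold lower at 7 days and 1.46-fold lower at 14 days. Timm9 had 10.03, 10.37 and 10.48 and was 1.27-fold and 1.37-fold higher. Each gene has 1 probe set, and both differences exceeded 1 technical SD at each time.

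Among the other small TIM genes, Timm13 had 12.29, 12.37 and 12.56, and Timm8b 13.57, 13.47 and 13.51. Timm8a1 had 10.94, 11.05 and 10.62, and a further probe set gave 10.37, 10.05 and 10.28, with the opposite sign at 7 days. Timm10b, a small TIM of the TIM22 complex, had 9.90, 9.96 and 9.52, and Timm29, a TIM22 subunit, had 11.32, 11.21 and 10.88. Timm22, its channel protein, had 10.46, 10.34 and 10.52. Timm8a2, a dim relative of Timm8a1, had 7.24, 7.10 and 6.37 and was 1.83-fold lower at 14 days, where the technical SD at such signals is 0.48. It was also the 1 gene counted as at least 1.5-fold lower at 14 than at 7 days, Tomm40l having only a bound of at least 1.42-fold, against 4.28% of all measured genes and 2.55% of bright ones.

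Within TIM23, the translocase for proteins with a leader, the members differed in sign. Timm44, which ties the channel to the import motor, had 9.78, 9.25 and 9.37 and was 1.44-fold lower at 7 days and 1.33-fold lower at 14 days. Timm21, which contacts the TOM complex, had 12.01, 11.68 and 11.64. Timm50, the receptor subunit, had 10.21, 10.02 and 10.01. Timm17a, a channel subunit, was higher instead, with 12.73, 12.97 and 12.98, and its paralogue Timm17b had 8.47, 8.50 and 8.64. The probe set of the channel gene Timm23 is shared with a copy and a pseudogene and was not used here. Timmdc1, which helps to assemble complex I rather than to import proteins, had 10.79, 10.99 and 10.90.

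Other probe sets of the same genes also had medians below 0 against control, though not every gene matched. Of the 97 genes 27 had more than 1 probe set, and 20 had a further one that stayed clear of the floor throughout, 23 probe sets in all. Their median log2 difference was -0.27 at 7 days and -0.23 at 14 days. Their sign matched that of the brightest probe set in 16 of 23 cases at 7 days and 20 of 23 at 14 days. Between the suspended arrays it matched in 12 of 23, with a median of 0.019. The widest gaps were in Mrpl10 (9.66, 9.33 and 9.25 against 8.72, 9.17 and 9.06), Mrpl52 (10.55, 10.58 and 10.74 against 9.35, 8.71 and 8.73) and Mrps27 (9.02, 9.06 and 8.70 against 7.86, 7.80 and 6.68). Mrps14, with 12.70, 12.38 and 12.36 against 12.16, 11.68 and 11.77, and Mrps9, with 11.87, 11.63 and 11.45 against 11.25, 11.01 and 10.75, had differences within 0.16 log2 units of each other.

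**Figure D3:**
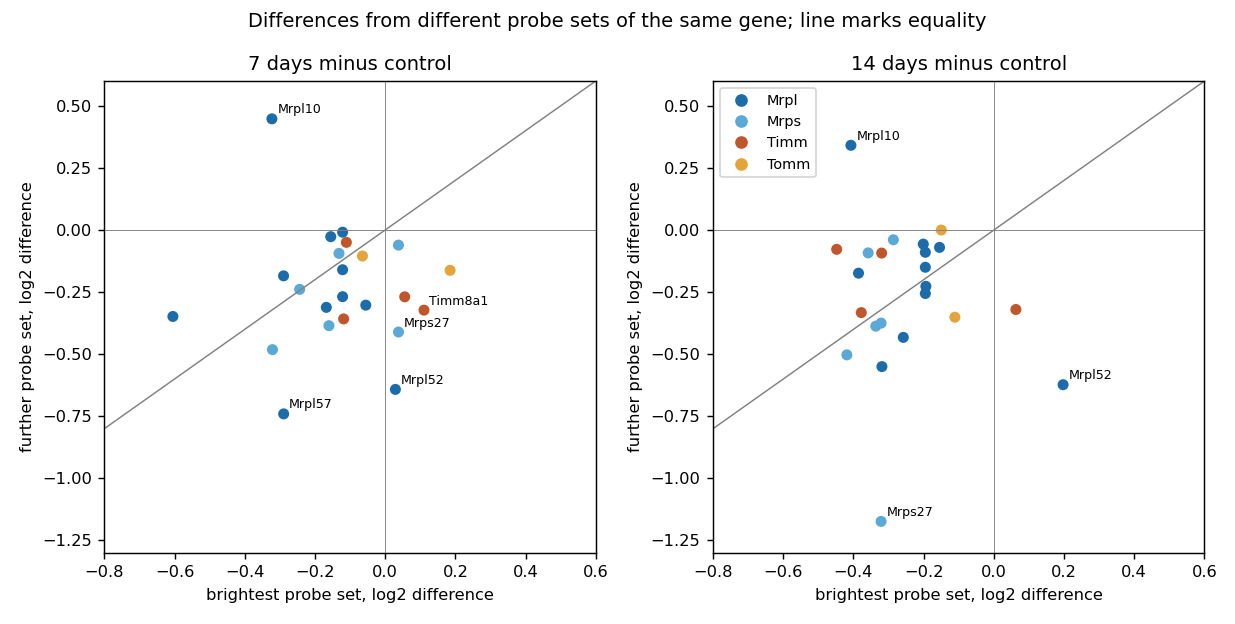
Each point is a further probe set of a gene that stayed clear of the floor; the horizontal axis gives the log2 difference from control of the gene's brightest probe set, the vertical axis that of the further one, and the line marks equality. Most of the 23 points fall below 0 on both axes, and the probe sets of Mrpl10 and of Mrpl52 have opposite signs at both times.

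Over the 3 arrays, the order with control highest and 14 days lowest was the most frequent. It held for 42 of the 97 genes, or 43.3%, against 23.5% of the bright genes and 19.8% of all measured genes. The order with 7 days lowest and control highest, as in Mrpl45 and Timm44, held for 19 genes, or 19.6%, against 14.9% of bright genes. Control was the lowest of the 3 arrays for 17 genes, or 17.5%, against 38.6% of bright genes. Between the suspended arrays themselves the median difference was -0.04, with 59 of 97, or 60.8%, lower at 14 days, against 54.0% of bright genes. With arrays centred on their medians that median was -0.10, and how the distance from control divides between the periods therefore depends on the scaling. The suspended arrays share 1 control, so the 2 differences from control are not independent.

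The respiratory chain, to which the mitochondrial ribosome contributes subunits, had lower medians than these genes with the deposited values, and cytosolic ribosomal protein genes stood elsewhere. Of 89 measured genes of the respiratory chain and its assembly factors, chosen by symbol, 79 lay below control at 7 days and 78 at 14 days, with medians of -0.17 and -0.24. Under quantile normalization its 14-day median was -0.14, no longer below that of the 97 genes. Ndufs4, a subunit of complex I, stood apart from the list with 11.19, 12.23 and 11.82, and Ndufs8, another, with 13.35, 12.40 and 12.81. Ndufaf1, an assembly factor of complex I, had 8.68, 8.25 and 7.81, and Ndufa4l2, a relative of a complex IV subunit, had 6.71, 6.91 and 7.98. Of 46 cytosolic ribosomal protein genes 43 lay above control at 7 days, with a median of 0.28, and 24 of 46 lay below it at 14 days, with a median of -0.02 that turned to 0.060 under quantile normalization. At 7 days the ribosomes of the cytosol and of the mitochondrion thus stood on opposite sides of control. From 7 to 14 days 45 of the 46 cytosolic genes were lower, with a median of -0.31, against -0.03 for Mrpl and -0.07 for Mrps genes. The cytosolic genes furthest from control were Rpl39 (6.96, 9.15 and 7.08), Rps27l (9.12, 10.24 and 9.90) and Rpl26l1 (6.46, 6.98 and 5.96, the last under the floor).

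**Figure D4:**
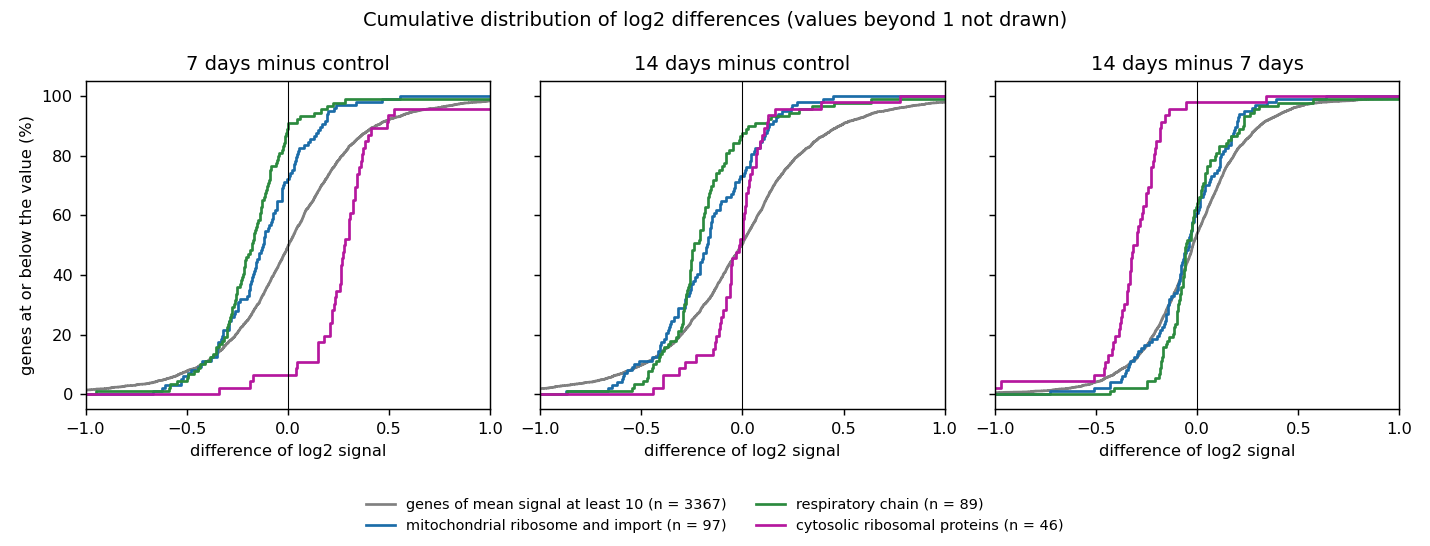
Share of genes at or below each log2 difference for 4 sets of genes in the 3 comparisons; a curve to the left of another has lower differences. The curve of the 97 mitochondrial ribosome and import genes lies between that of the respiratory chain and that of genes with a signal of at least 10 around 0 in both comparisons with control, and the cytosolic ribosomal curve lies to the right at 7 days.

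Most genes that work with the mitochondrial ribosome also lay below control, where 49.0% and 47.3% of all measured genes did. Of 5 ribosomal proteins outside the symbol rule, all lay below control at 7 days and 4 at 14 days. Dap3, a GTP-binding protein of the small subunit, had signals of 10.08, 9.47 and 9.76, and Ptcd3, an RNA-binding protein of the same subunit, had log2 differences of -0.41 at 7 days and -0.27 at 14 days. Of 16 translation factors 15 lay below control at 7 days and 14 at 14 days, with medians of -0.14 and -0.15. Tsfm, the exchange factor of the elongation factor Tu, had 10.61, 10.37 and 9.93 and was 1.60-fold lower at 14 days. Gfm2, a factor for ribosome recycling, had 7.97, 7.83 and 7.32 and was 1.56-fold lower. Mrrf, the recycling factor itself, had 9.01, 8.66 and 8.71, and Cox18, an insertase of the inner membrane, had 10.16, 9.83 and 10.31.

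Further lists hold the enzymes that charge mitochondrial tRNAs and mature the ribosomal RNA. Of 16 measured genes for charging tRNAs, 2 were at least 1.5-fold lower and 1 higher at 7 days, and 5 lower and 1 higher at 14 days, with medians of -0.17 and -0.24. Among all measured genes 9.15% were lower and 9.04% higher at 7 days, and 9.25% and 11.7% at 14 days. Signals in this list were low, and the technical SD of a difference from control is 0.36 at signals of 8 to 10 and 0.48 below 8. Cars2, for cysteine, had 8.16, 6.75 and 6.80 and was 2.66-fold lower at 7 days and 2.56-fold lower at 14 days. Gatb, of the complex that makes glutaminyl-tRNA, had 7.72, 7.74 and 6.85. Of 19 assembly and RNA maturation genes 11 lay below control at 7 days and 16 at 14 days, with medians of -0.02 and -0.15. Nsun4, a methyltransferase of the small ribosomal RNA, had 9.77, 9.05 and 8.97 and was 1.64-fold and 1.73-fold lower, whereas Rpusd3, a pseudouridine synthase, had 8.49, 9.03 and 8.95, and its relative Rpusd4 had 8.74, 8.43 and 8.12.

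Among 13 genes for transcription and replication of mitochondrial DNA, 8 lay below control at 7 days and 10 at 14 days, with medians of -0.27 and -0.32. Tefm, the elongation factor of the mitochondrial RNA polymerase, had 10.50, 10.12 and 9.60 and was 1.86-fold lower at 14 days. Top1mt, the mitochondrial topoisomerase, had 6.53, 7.32 and 7.54 and was 2.03-fold higher at 14 days, at a low signal. Polg, the mitochondrial DNA polymerase, had 9.30, 8.83 and 8.93.

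Of 16 import partners outside the symbol rule 12 lay below control at 7 days and 11 at 14 days, with medians of -0.14 and -0.13. Agk, a lipid kinase that is also a TIM22 subunit, had 8.87, 8.57 and 8.02 and was 1.80-fold lower at 14 days. Gfer, the sulfhydryl oxidase of the pathway that folds small TIM proteins, was higher, by 0.58 log2 units at 7 days and 0.64 at 14 days, and Hscb, a cochaperone of iron-sulfur cluster assembly, had 9.15, 9.74 and 9.71. Of 9 processing peptidases and matrix chaperonins 7 lay below control at each time. Pmpca, the substrate-binding subunit of the peptidase that removes leaders, had 10.73, 10.35 and 10.05 and was 1.61-fold lower at 14 days, and Immp1l, an inner membrane peptidase, had 11.20, 11.78 and 11.49. Mipep, a second leader peptidase, had 10.03, 9.60 and 9.79, and Xpnpep3, an aminopeptidase, had 6.46, 6.24 and 7.24.

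Mitochondrial quality proteases had medians of -0.11 and -0.06 over 12 genes. Oma1, a stress-activated protease of the inner membrane, had 8.65, 9.33 and 9.39 and was 1.60-fold and 1.67-fold higher, and Yme1l1, which works beside it, had 11.32, 10.82 and 10.90. Parl, a protease within the inner membrane, had 11.09, 11.68 and 11.22. Genes linked to the mitochondrial unfolded protein response had medians of -0.13 and -0.09 over 15 genes, with 4 at least 1.5-fold higher and 1 lower at 7 days, against 9.04% and 9.15% of all measured genes. The lower one was Ddit3, a stress transcription factor, with 10.82, 9.92 and 10.71. Chac1, a glutathione-degrading enzyme induced by stress, had 8.99, 11.11 and 11.21, or 4.36-fold and 4.68-fold higher. Phgdh, which starts serine synthesis, had 5.85, 7.47 and 8.32, with control under the floor, and was at least 2.75-fold and at least 4.95-fold higher.

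Regulators of mitochondrial genes included larger differences from control. Of 15 measured, 11 lay below control at 7 days and 8 at 14 days, with medians of -0.21 and -0.47. At least 1.5-fold apart were 4 lower and 1 higher at 7 days, and 6 lower and 1 higher at 14 days, where 9.15% of all measured genes were lower and 9.04% higher at 7 days, and 9.25% and 11.7% at 14 days. Esrra, an oestrogen-related receptor that drives mitochondrial genes, had 11.36, 10.41 and 10.37 and was 1.93-fold and 1.98-fold lower. Its relative Esrrg had 12.42, 11.86 and 11.34 and was 2.13-fold lower at 14 days, and Esrrb had 8.22, 7.34 and 6.81. Sirt3, a mitochondrial deacetylase, had 11.26, 10.17 and 10.63 and was 2.14-fold lower at 7 days.

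Promoters of these genes were compared as a description of sequence, and no link between letters and signals was tested. RefSeq promoter windows (build GRCr8, 250 bases before to 50 after the start site) were matched for 81 of the 97 genes, by gene identifier or symbol. The letters AAGATGGC, bound by YY1, a factor of many housekeeping promoters, were found on either strand in 16 of the 81, or 19.8%, against 5.72% of 9347 measured genes and 3.62% of 27457 genes in all. CCGGAAG, bound by GABPA, an ETS factor of mitochondrial genes, was found in 28, or 34.6%, against 17.9% and 9.63%. GCGCATGC, part of the site of NRF1, was found in 6, or 7.41%, against 5.03% and 2.77%. AAGGTCA, the core site of oestrogen-related receptors, was found in 5, or 6.17%, against 3.11% and 4.83%. Among genes of mean signal at least 10, the closer comparison, the shares were 7.07% for YY1 and 19.6% for GABPA. They were 6.40% for NRF1 and 2.95% for the oestrogen-related receptors, so the NRF1 share of the mitochondrial genes was near that of bright genes.

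GGGCGG, bound by SP1, was found in 51.9% against 63.3% of measured genes and 36.0% of all genes. CCAAT, bound by NF-Y, was found in 44.4% against 38.9% and 39.6%, and TATAAA, the box of TBP, in 11.1% against 7.84% and 15.3%. Among genes of mean signal at least 10 the shares were 66.4% for SP1, 39.7% for NF-Y and 8.58% for TBP. A match is a description of letters and not a bound site. Genes with the YY1 letters had median differences of -0.17 and -0.23 at 7 and 14 days, and those without had -0.12 and -0.17. For GABPA the medians were -0.13 and -0.19 with the letters and -0.13 and -0.18 without. The oestrogen-related receptor letters, in 5 genes, gave the widest gap at 7 days, with -0.32 and -0.29 against -0.12 and -0.18. NRF1, in 6 genes, went the other way, with -0.04 and -0.17 against -0.14 and -0.19. SP1 had -0.13 and -0.19 against -0.13 and -0.16, and NF-Y -0.15 and -0.20 against -0.12 and -0.17. TBP had -0.19 and -0.16 against -0.12 and -0.19.

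**Figure D5:**
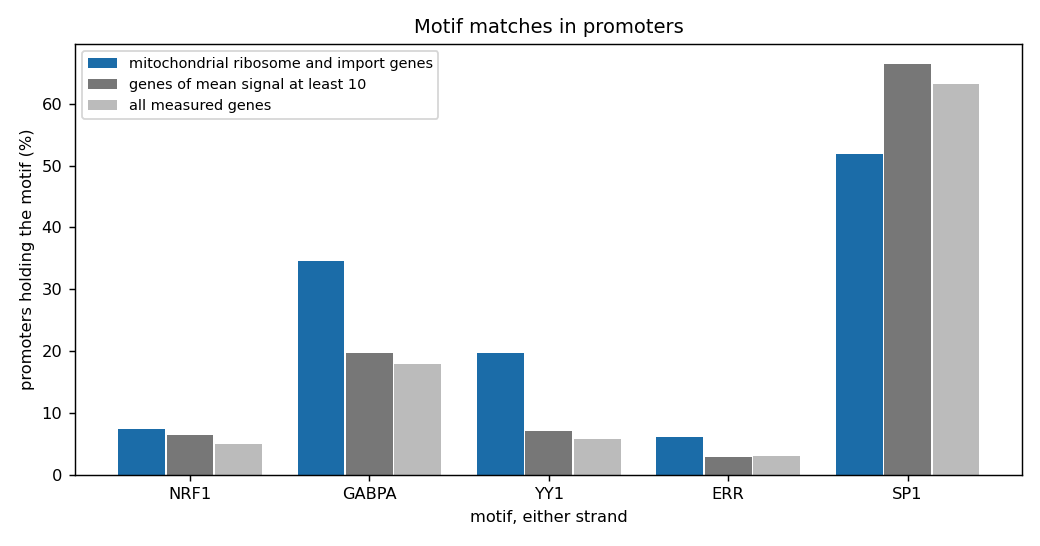
Bars give the percentage of promoter windows that hold a motif on either strand, for the 81 mitochondrial ribosome and import genes with a window, for genes of mean signal at least 10 and for all measured genes. The YY1 and GABPA bars are taller for the mitochondrial genes, at 19.8% and 34.6%, and the SP1 bar is shorter, at 51.9%.

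The windows of 4 genes are shown to set letters beside values: Mrps18b, furthest below control of the ribosomal genes at 14 days, holds the NRF1, GABPA, YY1 and SP1 letters; Mrps6 and Mrpl49 hold the YY1 letters near the start site; and Mrpl44, above control, holds the NRF1 letters. Capitals mark matches to NRF1, GABPA and YY1 on either strand, but not to SP1, and the NRF1 matches of Mrps18b and Mrpl44 are overlapping matches on both strands. The windows are on build GRCr8 at chr20:2842756-2843055 (plus strand), chr11:44778417-44778716 (plus strand), chr1:212779278-212779577 (minus strand) and chr9:88554800-88555099 (plus strand), in this order, written 5′ to 3′ in the sense of the gene.
Mrps18b: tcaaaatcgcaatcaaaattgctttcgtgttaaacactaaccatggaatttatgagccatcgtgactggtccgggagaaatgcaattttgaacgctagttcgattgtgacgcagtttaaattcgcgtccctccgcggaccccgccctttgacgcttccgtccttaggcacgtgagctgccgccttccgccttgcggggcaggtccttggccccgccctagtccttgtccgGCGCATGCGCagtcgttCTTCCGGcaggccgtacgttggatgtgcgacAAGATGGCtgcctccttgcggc
Mrps6: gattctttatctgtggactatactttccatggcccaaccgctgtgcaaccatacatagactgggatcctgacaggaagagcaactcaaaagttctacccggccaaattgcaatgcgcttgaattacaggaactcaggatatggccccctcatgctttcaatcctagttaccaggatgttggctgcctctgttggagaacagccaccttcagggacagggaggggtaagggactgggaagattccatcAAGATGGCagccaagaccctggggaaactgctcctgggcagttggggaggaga
Mrpl49: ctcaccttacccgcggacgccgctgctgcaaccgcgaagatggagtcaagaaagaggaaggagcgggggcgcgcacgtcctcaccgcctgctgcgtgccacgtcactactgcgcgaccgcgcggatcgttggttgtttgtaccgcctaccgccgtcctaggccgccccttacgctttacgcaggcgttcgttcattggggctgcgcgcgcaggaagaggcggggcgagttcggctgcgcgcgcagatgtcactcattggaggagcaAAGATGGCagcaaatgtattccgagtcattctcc
Mrpl44: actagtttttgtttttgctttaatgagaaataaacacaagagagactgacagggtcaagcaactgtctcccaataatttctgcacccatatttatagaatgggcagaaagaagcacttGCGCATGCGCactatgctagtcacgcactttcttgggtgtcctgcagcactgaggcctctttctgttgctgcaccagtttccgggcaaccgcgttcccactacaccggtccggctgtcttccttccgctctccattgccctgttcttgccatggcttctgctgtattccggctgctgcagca

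In these windows the YY1 letters begin at base 29 after the start site in Mrps18b, at base 17 in Mrpl49 and at -3 in Mrps6, counted from the start site as 1 with no 0. The NRF1 letters begin at -20 in Mrps18b and at -132 in Mrpl44. Mrps18b and Mrpl44, with the same NRF1 letters, lay on opposite sides of control, at -0.35 and 0.47 at 7 days and at -0.65 and 0.12 at 14 days.

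Markers of other cells and fibre types also differed between the arrays. All 10 macrophage markers lay above control on both arrays, with summed unlogged signals of 10028, 13099 and 13301 on the control, 7-day and 14-day arrays. The 7 fibroblast markers summed to 74252, 88793 and 104796, the 8 fast fibre markers to 103973, 185822 and 282159, and the 8 slow fibre markers to 372854, 359310 and 302344. Above control at each time lay 6 of the 7 fibroblast and 7 of the 8 fast fibre markers. Such sums follow the brightest markers most. All 8 slow fibre markers lay below control at 14 days, with a median log2 difference of -0.31, and 4 of 8 did at 7 days. All 7 muscle fibre markers lay below control at 14 days, with a median of -0.11, and 2 of 7 did at 7 days, with a median of 0.04. The 5 endothelial markers summed to 5655, 5077 and 6020. All 5 lay below control at 7 days, and 3 of 5 at 14 days, with a median of -0.16 there despite the higher sum. The 3 Schwann cell markers summed to 7077.9, 9567.9 and 13706.5. For lymphocytes 3 of 4 markers lay under the floor on every array. The part of these differences in the small difference of the mitochondrial ribosome and import genes was not tested.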

How the data were processed

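Biotin-labelled cRNA from pooled soleus RNA was hybridised to Affymetrix arrays, per the labels' protocols. Each probe set has a deposited log2 signal, scaled by the authors to a nearly equal trimmed mean of the unlogged signals (500.25, 500.248 and 500.239 on the control, 7-day and 14-day arrays, 2% trimmed at each end), as read from the values. The program is not given in the sources used here. Of 31099 probe sets, 57 controls were left out, 20826 named 1 gene by the platform annotation and were used, and 436 with several genes and 9780 with none were not. The floor was the 40th percentile of all values, and lower signals were set to it. Differences of log2 signals were taken and 1.5-fold differences counted, with no test. The procedure was checked on simulated arrays, with shifts larger than those of the mitochondrial ribosome and import genes. The check therefore does not cover differences as small as theirs. Members and lists were chosen with earlier results of these data known. Genes are named where their differences or list called for it: the 5 largest and smallest per comparison, bounds, the brightest and dimmest, every Timm and Tomm gene, and 2 per list and time. Mrpl10, Mrpl52, Mrps27, Mrps14, Mrps9, Ddit3, Mrps18a, Mrps18c, Mrps30 and the other ribosomal genes outside that rule were named after their values were seen. Alternatives were other floors, scalings and probe set choices. Python 3.11.15, numpy 2.4.6 and pandas 2.3.3 were used. Depth has no meaning on arrays, and their number limits the precision.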

Additional observations from a re-analysis of the deposited data

How the results depend on the processing

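Of 645 summary values recomputed under other settings, 608 stayed within a tolerance of the reported value, 35 moved and 2 reversed. The cause was not tested. The tolerance was wide. A count stayed if within 1.5-fold of the reported one, so 57 genes below control at 7 days, where 70 were reported, count as staying. For medians the tolerance was wider the shorter the list. The median of the 97 genes ranged from -0.14 to -0.048 at 7 days, from -0.19 to -0.15 at 14 days and from -0.10 to -0.02 between the suspended arrays. With arrays centred on their medians, the 7-day medians were -0.048 for the 97 genes, -0.050 for Mrpl, -0.10 for the respiratory chain, 0.35 for cytosolic ribosomal genes and -0.086 for ribosomal proteins with a bacterial counterpart, with 1 gene at least 1.5-fold higher and 1 lower; between the suspended arrays they were -0.10, -0.092, -0.12, -0.37 and -0.12, with 0 genes higher. Under quantile normalization, the respiratory chain had -0.14 at 14 days and a reversed 0.075 between the suspended arrays, and cytosolic ribosomal genes had 0.060 and -0.19.

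With all probe sets of a gene averaged, 5 genes were at least 1.5-fold lower at 7 days, 1 was higher at 14 days, and 2 were higher and 2 lower between the suspended arrays. The regulators then had a median of -0.35 at 7 days, and between the suspended arrays the synthetases had 0.029 and the quality proteases -0.12. With the second brightest probe set, 5 genes were lower at 7 days and 2 between the suspended arrays, where the synthetases had 0.028 and proteins with a bacterial counterpart a reversed 0.021. Mrps2 at 14 days reversed to 0.085 with the mean and to 0.47 with the second probe set.

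At 2-fold with the floor kept, 0 genes were lower at 7 and at 14 days, and 0 were higher or lower between the suspended arrays; Tomm40l, under the floor at 14 days, enters by its bound, and its deposited signals of 6.68 in control and 5.58 at 14 days are over 2-fold apart. Genes lower at 14 than at 7 days numbered 2 with the floor at the 30th percentile, 0 at the 50th, 2 with no floor, and 0 among members of signal at least 10, of which 4 were lower than control at 14 days. This last setting and a centring on bright genes were added after seeing the data. No replicate could be left out. No paired analysis was possible because each group is 1 array. Having 1 array per group limits the precision, and the technical SD is larger for dim probe sets.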
